A study of Mus musculus with 6 samples.

Results

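DNA replication genes were followed here in mouse embryonic fibroblasts (MEFs), fibroblasts grown out of dissected embryos, of a line described as p53-deleted. The set was a fixed list of 51 genes of origin licensing, the replicative helicase, the polymerases, the sliding clamp, nucleotide supply and chromatin copying. All 51 were found by symbol among the 54752 rows of the deposited count table, and all 51 passed the filter on low counts that left 17128 genes for testing. The rule that lists the 51 genes uses no measured value, but the genes and lists here were chosen with earlier results of these data known. The study compared a lentiviral short hairpin RNA against p19ARF (shARF, 3 libraries) with a negative control hairpin (shNT, 3 libraries). Both groups carried the p53 deletion, lentiviral infection and the tag neo, and their genotypes were entered as ARF knockdown for shARF and as WT for shNT. Cells of both groups grew in DMEM with fetal bovine serum and antibiotics. Sample titles call the 3 libraries of each group biological replicates. Whether the line is a clone or a pool, and whether replicates were separate infections, the sources used here do not give. The p-values therefore cover only the spread among the libraries, whose level of replication is not described and which may in part be technical. By its title, the series asks how ARF acts on transcription through the PAF1 complex once p53 is lost.

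Replication starts where the origin recognition complex (ORC) marks DNA and, with Cdc6 and Cdt1, loads the ring-shaped MCM helicase. The kinase Cdc7-Dbf4, Cdc45 and the GINS complex then switch the helicase on, and primase and the replicative polymerases copy the strands behind it on the clamp PCNA. In cycling cells most of these genes are transcribed around the passage from G1 to S phase under E2F factors, which the RB proteins restrain. ARF is best known for holding back the p53 antagonist MDM2, and its gene Cdkn2a also encodes p16INK4a, an inhibitor of the kinases that inactivate RB.

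Many of the promoters carried a feature that the choice of genes did not use, and that other replication genes shared to a lesser extent. RefSeq promoter windows (build GRCm38.p6, 250 bases before to 50 after the start) matched 43 of the 51 genes with 53 windows. The unmatched genes were Gmnn, Mcm4, Gins1, Gins2, Gins4, Prim2, Pole and Rfc2. An E2F-type word (the letters TTCCCGC, the letters TTGGCGC, the letters TTCGCGC or the letters TTGCCGC, on either strand) was in 32 of the 53 windows (60.4%), against 16.3% of windows of genes tested and 9.57% of all 32851 windows. TTGGCGC and TTCGCGC overlap on opposite strands where the letters run TTGGCGCGAA. Among replication genes outside the list, described below, 18 of 43 windows (41.9%) held an E2F-type word. CCAAT was in 52.8% of the windows of the 51 genes, against 37.8% of windows of genes tested and 37.4% of all windows. TTTGAA was in 15.1%, against 12.2% and 17.9%. In windows of the other replication genes CCAAT was in 44.2% and TTTGAA in 18.6%. Genes that rose held an E2F-type word in 10 of 21 windows, genes that fell in 14 of 21 and genes with no call in 8 of 11. Word matches are a description of letters, not of bound sites.

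The stretches below are examples from well-expressed members, mostly of stretches that hold words. Each gives the 120 bases before the gene start, 5′ to 3′ on the gene's strand, with E2F-type words in capitals. They lie at chr1:128359706-128359825 (Mcm6, minus strand), chr5:138171267-138171386 (Mcm7, minus, for 1 of its 2 starts), chr6:88898781-88898900 (Mcm2, minus), chr7:102441575-102441694 (Rrm1, plus) and chr17:56040296-56040415 (Chaf1a, plus), outside all exons of GENCODE M21.
Mcm6: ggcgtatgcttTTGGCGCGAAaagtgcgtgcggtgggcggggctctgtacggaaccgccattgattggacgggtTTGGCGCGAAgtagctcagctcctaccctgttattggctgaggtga
Chaf1a: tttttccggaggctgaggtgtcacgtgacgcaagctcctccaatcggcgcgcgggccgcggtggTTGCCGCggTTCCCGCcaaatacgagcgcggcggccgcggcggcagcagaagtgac
Rrm1: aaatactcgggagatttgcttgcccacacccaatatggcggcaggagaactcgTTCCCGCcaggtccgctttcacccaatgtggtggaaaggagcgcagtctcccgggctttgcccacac
Mcm7: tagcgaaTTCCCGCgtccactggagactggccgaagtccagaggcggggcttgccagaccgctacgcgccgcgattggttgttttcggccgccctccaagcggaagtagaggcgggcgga
Mcm2: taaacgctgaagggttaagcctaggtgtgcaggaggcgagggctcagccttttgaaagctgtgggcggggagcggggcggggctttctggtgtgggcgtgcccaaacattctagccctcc
In these stretches Mcm6 had 4 word starts in overlapping pairs, Chaf1a had 2, Rrm1 and Mcm7 had 1 each, and Mcm2 had none in its full window. The printed stretches do not show how common words are. Most stretches of the members that lie outside exons held no word. Among these, Mcm3, Mcm5 and Pola1 had words only elsewhere in their full windows.

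Before the comparison, labels and cells were checked. Cdkn2a was at 231, 218 and 223 CPM (counts scaled to a common library size with TMM factors) in shNT and at 95.6, 103 and 107 CPM in shARF (log2 fold change -1.14, adjusted p = 2.52e-06, edgeR; exact two-sided permutation p = 0.1, the smallest that 3 against 3 allow). Counts per gene do not separate the ARF and p16INK4a transcripts of Cdkn2a, so the change of each was not measured. Total counts were 40.3 to 47.0 M per library, and the 51 genes had between 487 (Pole2) and 15930 (Rrm1) counts in a library. Of 10 fibroblast markers all were detected, with a summed level of 17000 to 18300 CPM in shNT and 20100 to 20400 CPM in shARF, although Pdgfra (502 to 91.4 CPM), Dcn (198 to 45.5 CPM) and Twist1 (67.6 to 46.6 CPM) fell. Summed levels were 15.3 to 17.4 and 7.05 to 7.73 CPM for 6 epithelial markers, 2.4 to 2.99 and 2.81 to 3.62 CPM for 5 endothelial markers, and 6.73 to 7.47 and 1.5 to 1.99 CPM for 5 immune markers. Within the epithelial list Krt18 fell (12.7 to 0.15 CPM) while Cdh1 (2.14 to 4.8 CPM) and Krt14 (0 to 1.91 CPM) rose, and within the endothelial list Kdr rose (0.282 to 3.13 CPM) while Tek fell (2.16 to 0.067 CPM). Cdh5, Adgre1 and Cd3e were at 0 in all libraries. The 4 mesothelial markers summed to 82.4 to 85.7 and 83.8 to 85.6 CPM, of which Msln fell while Upk3b, Wt1 and Lrrn4 rose. Xist was at 360 to 413 CPM in shNT and 40.7 to 54.3 CPM in shARF, and all 4 Y-linked genes measured were higher in shARF. Kdm5d went from a mean of 0.782 to 19.5 CPM, Ddx3y from 24.4 to 85.3, Eif2s3y from 12.8 to 38.3 and Uty from 9.61 to 21.7 CPM, so both groups held Xist and Y-linked RNA, in different proportions. Whether the groups are different cultures or mixtures of cells cannot be told apart from the effect of the hairpin. The part of these differences between the cultures in the results that follow was not tested, and in bulk RNA fewer cycling cells and less RNA per cell cannot be told apart.

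Replication genes as a set differed little in level between shARF and shNT, and went both ways. Of the 51, 19 were higher in shARF, 21 were lower and 11 did not pass the test (edgeR's quasi-likelihood test, Benjamini-Hochberg adjusted p under 0.05 over all 17128 genes). That is 78.4% called, where 56.4% of all genes tested and 66.8% of the 9755 genes that averaged 10 CPM or more were called. Of all genes tested, 28.8% were higher and 27.7% lower. None of the 51 changed by 2-fold, a size reached by called genes in 14.4% of all genes tested and 7.4% of those at 10 CPM or more. The median absolute log2 fold change was 0.17 for the 51 genes, 0.26 for genes at 10 CPM or more and 0.34 for all genes tested. The median signed log2 fold change was 0.06, beside -0.01 for all genes tested. For 41 of the 51 genes the ranges of the groups stood apart, 19 toward higher and 22 toward lower, against 64.6% of all genes tested and 73.1% of those at 10 CPM or more. With library sizes alone as the scaling the split was 12 higher and 22 lower, beside 23.5% and 34.3% of all genes (57.8% called).

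**Figure D1:**
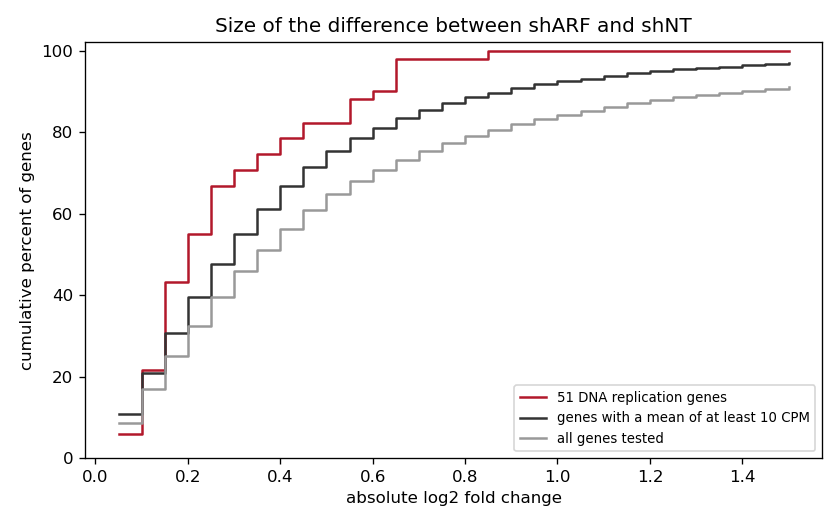
Cumulative percent of genes (vertical axis) at or under an absolute log2 fold change between shARF and shNT (horizontal axis) for the 51 DNA replication genes, genes averaging 10 CPM or more and all genes tested. Of the 51 genes, 70.6% lay under 0.3, against 55.0% and 45.9% of the other sets.

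The summed level of the 51 genes was 4400, 4440 and 4430 CPM in shNT and 4500, 4490 and 4440 CPM in shARF. As a share of raw counts, without TMM factors, the sum was 0.453 to 0.46% in shNT and 0.43 to 0.436% in shARF. The direction of the sum thus depended on the scaling. Of the 40 called genes, 28 kept their call and direction in all of 14 alternative settings (12 higher, 16 lower).

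**Figure D2:**
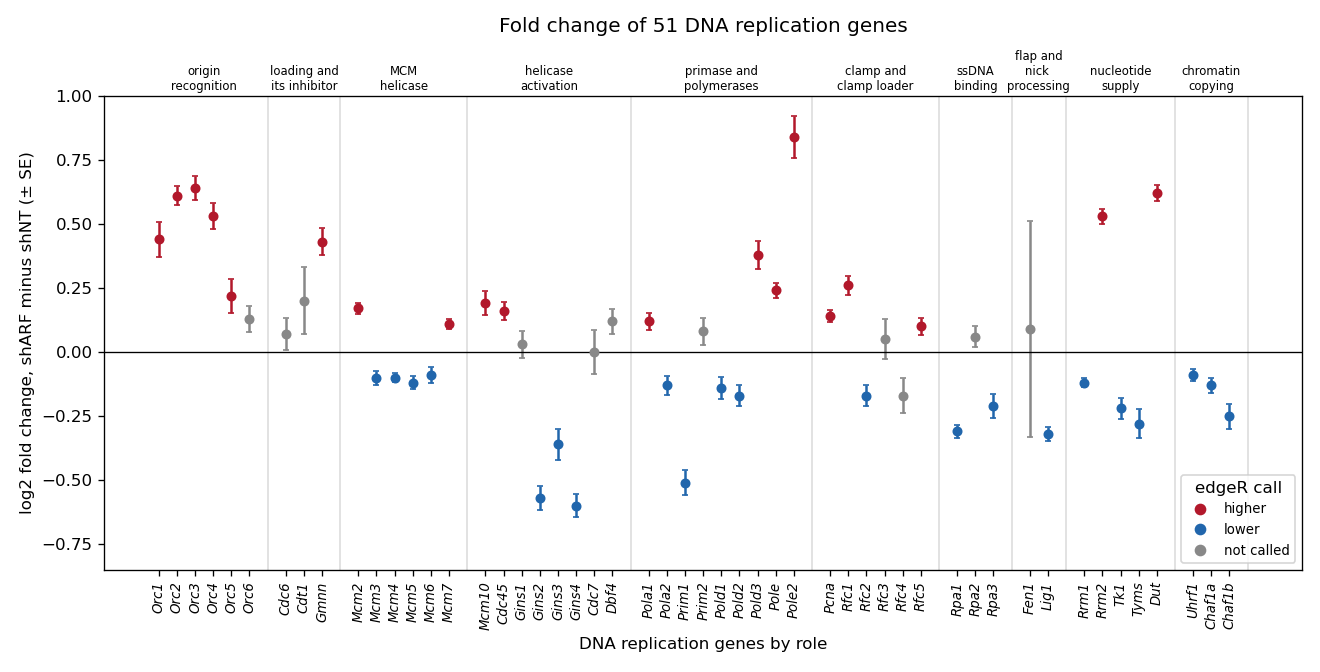
Log2 fold change of shARF minus shNT (vertical axis, bars are the standard error of the fit, 3 libraries a group) for each of the 51 genes, grouped by role and coloured by call. ORC genes lie above 0, 3 of 4 GINS genes lie between -0.60 and -0.36, and the MCM genes lie within 0.17 of 0.

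Origin recognition genes were the role with the most uniform rise. Orc1 to Orc5 were higher in shARF, between 117% (Orc5) and 155% (Orc3) of the shNT level, and Orc6 was not called. Orc1, the subunit that is turned over in the cell cycle, was at 17, 15.4 and 18.2 CPM in shNT and 23.5, 22.6 and 22.8 CPM in shARF (log2 fold change 0.44, SE 0.07, adjusted p = 0.00148). Orc2 (chromosome 1, 58462771 to 58505109, GRCm38) was at 53.5, 50.7 and 49.8 CPM and at 77.6, 78.6 and 78.4 CPM (0.61, SE 0.04, adjusted p = 1.75e-05). All 3 shARF libraries lay above all shNT libraries for both genes. Orc3 (chromosome 4, 34570796 to 34614944) was at 43.5, 46.1 and 47.5 CPM and at 74, 69.8 and 69.5 CPM (0.64, SE 0.05, adjusted p = 4.13e-05). Orc4 was at 40.9, 37.7 and 40.4 CPM and at 54.8, 58.8 and 58.6 CPM (0.53, SE 0.05, adjusted p = 0.000127). These ORC subunits form the ring that encircles origin DNA, and again the groups stood apart.

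Orc5 rose less, from 24.0 ± 0.765 to 28.0 ± 2.21 CPM (SD, n = 3 each; 0.22, adjusted p = 0.0261, edgeR). Its call was lost with library sizes alone (adjusted p = 0.138) and without shNT replicate 2 (0.0751), shNT replicate 3 (0.0778) or shARF replicate 1 (0.0526), within a range up to 0.138 over the alternatives. Orc6, the most loosely held subunit, was at 42.3, 42.2 and 44.8 CPM in shNT and 49.3, 44.7 and 47 CPM in shARF (0.13, SE 0.05, adjusted p = 0.0717), with groups that overlapped. Without shARF replicate 2, Orc6 was called higher (0.16, adjusted p = 0.0436). Within each library, the ratio of Orc3 to Orc6 per transcript length, a measure that no scaling changes and that was chosen after the values were seen, was 0.576, 0.611 and 0.593 in shNT and 0.839, 0.873 and 0.826 in shARF. Orc2 exons overlap those of Nif3l1 on the opposite strand over 29.8% of their length, and Nif3l1 also rose (0.26, adjusted p = 0.0178). Orc6 exons overlap those of the more abundant Vps35 on the opposite strand over 6.9%. Vps35 fell (-0.75, adjusted p = 7.79e-07, edgeR). Orc4 exons overlap those of Acvr2a on the opposite strand over 6.0%, and Acvr2a rose (0.92). The part of these overlaps in the ORC values and in the ratio of Orc3 to Orc6 was not tested. The library kit keeps strand, but the sources used here do not give whether counting used it.

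The loaders Cdc6 and Cdt1 were not called, whereas Gmnn, which encodes the Cdt1 inhibitor geminin, rose. Gmnn was at 15.2, 15.7 and 15.4 CPM in shNT and 20.7, 21.8 and 20 CPM in shARF (0.43, SE 0.05, adjusted p = 0.000416). Cdc6 was at 39.2, 36 and 33.7 CPM and at 37.2, 39.1 and 38 CPM (0.07, SE 0.06, adjusted p = 0.376). Its groups overlapped. Cdt1 was at 50.2, 51.5 and 52.7 CPM in shNT and at 52.9, 51.6 and 73.3 CPM in shARF (0.20, SE 0.13, adjusted p = 0.239). For Cdt1, shARF replicate 3 stood above the other 5 libraries, which lay within 3 CPM of each other.

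The 6 genes of the MCM helicase split, with small differences on both sides. Mcm2 and Mcm7 rose and Mcm3, Mcm4, Mcm5 and Mcm6 fell, all by less than 0.2 on the log2 scale. Mcm2 was at 217, 219 and 214 CPM in shNT and 245, 243 and 244 CPM in shARF (0.17, SE 0.02, adjusted p = 0.000357). Mcm7 was at 185, 184 and 185 CPM and at 199, 201 and 198 CPM (0.11, SE 0.02, adjusted p = 0.00317). Replicates of both genes lay close together, at 112% and 108% of the control, and the groups were apart. Mcm4, the most abundant of the 6, was at 280, 280 and 278 CPM in shNT and 260, 265 and 259 CPM in shARF (-0.10, SE 0.02, adjusted p = 0.00504). Mcm5 was at 211, 209 and 213 CPM and at 199, 195 and 190 CPM (-0.12, SE 0.03, adjusted p = 0.00687). Mcm3 fell from 156 ± 3.42 to 145 ± 2.12 CPM (adjusted p = 0.0169) and Mcm6 from 187 ± 4.23 to 176 ± 4.95 CPM (adjusted p = 0.0478, edgeR).

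Differences of this size in the MCM genes were close to the effect of scaling. With library sizes alone Mcm7 was at 0.02 (adjusted p = 0.482) and Mcm2 at 0.08 (0.0182), while Mcm3, Mcm4, Mcm5 and Mcm6 were at -0.19, -0.19, -0.21 and -0.18, all still called lower. Mcm6 lost its call in 8 of 14 alternatives, DESeq2 and each single library other than shNT replicate 1 among them (adjusted p up to 0.161), and Mcm3 in 4, with the replicate block (0.0575) and without shNT replicate 2 (0.0665), shARF replicate 2 (0.0515) or shARF replicate 3 (0.0731). Per kb of the principal transcript, the MCM subunits lay closer together than those of ORC or GINS. In shNT they ran from 51.4 ± 1.13 (Mcm3) to 77.8 ± 0.347 CPM per kb (Mcm4), a ratio of 1.51. In shARF they ran from 48.0 ± 0.7 to 72.8 ± 0.871, a ratio of 1.52. The ratios were 5.97 and 4.79 for ORC and 6.73 and 5.71 for GINS. Those of the clamp loader RFC (2.63 and 3.52) and of the single-strand binding protein RPA (2.26 and 1.75) were nearer to those of MCM. In shNT the levels of Mcm2 (64.3 ± 0.751), Mcm6 (64.1 ± 1.45), Mcm5 (62.4 ± 0.489) and Mcm7 (62.4 ± 0.135 CPM per kb) followed Mcm4. Mcm2 and Mcm6, and Mcm5 and Mcm7, differed by less than the spread of replicates. In shARF, Mcm2 (72.3 ± 0.389) stood next to Mcm4, above Mcm7 (67.3 ± 0.545), Mcm6 (60.4 ± 1.7) and Mcm5 (57.6 ± 1.43 CPM per kb). The order depends on the transcript taken: per kb of all annotated exons Mcm2 was the lowest and the ratio was 2.5 in shNT and 2.08 in shARF. By that length the ratios were 2.61 and 3.51 for RFC and 3.4 and 2.63 for RPA.

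**Figure D3:**
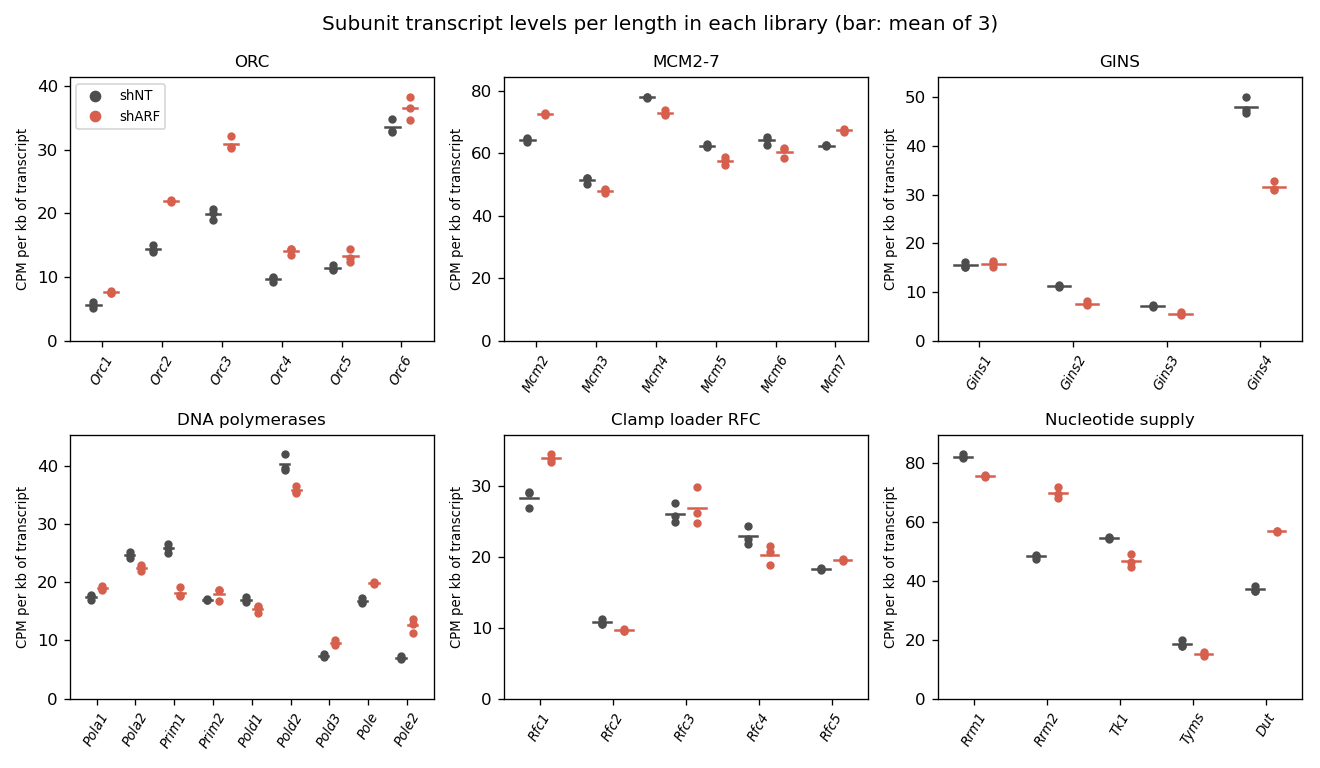
Level per kb of principal transcript (vertical axes, CPM per kb) in each of 3 shNT and 3 shARF libraries for subunits of ORC, MCM2-7, GINS, the polymerases and RFC and for nucleotide supply genes, with bars at the mean. MCM subunits lie between 48.0 and 77.8, GINS subunits between 5.54 and 48.1.

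Among the genes that activate the helicase, the GINS complex carried the clearest fall. GINS joins MCM and Cdc45 in the moving helicase. Gins2, Gins3 and Gins4 were lower in shARF, at 67.4%, 77.7% and 65.8% of the shNT level, and Gins1 was not called. Gins2 (chromosome 8, 120578633 to 120589304) was at 45, 44.2 and 43.3 CPM in shNT and 28.8, 31.5 and 29.1 CPM in shARF (-0.57, SE 0.05, adjusted p = 7.58e-05). Gins3 (chromosome 8, 95633453 to 95645060) was at 18.7, 17.3 and 17.9 CPM and at 13.9, 14.8 and 13.3 CPM (-0.36, SE 0.06, adjusted p = 0.00212). Gins4 (chromosome 8, 23226616 to 23237659) was at 63.1, 67.5 and 63.8 CPM and at 44.2, 42 and 41.8 CPM (-0.60, SE 0.04, adjusted p = 3.56e-05). For each of these the lowest shNT library stood above the highest shARF library, and no alternative ended the calls. Gins1, which lies on chromosome 2 (150905400 to 150931280), was at 17.5, 16.4 and 16.5 CPM and at 17.7, 16.5 and 17.4 CPM (0.03, SE 0.05, adjusted p = 0.647). The ratio of Gins4 to Gins1 per transcript length within a library was 2.91, 3.31 and 3.11 in shNT and 2.02, 2.05 and 1.93 in shARF. This pair, and the pairs of the ratios below, were likewise chosen after the values were seen. Gins2 exons overlap Gse1 on the opposite strand over 67.3% of their length. Gse1 was at 115 to 117 CPM in shNT and 104 to 108 CPM in shARF (-0.13), a smaller fall on the log2 scale than that of Gins2. The part of this overlap in the Gins2 values was not tested.

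The other helicase activators moved little. Mcm10, a scaffold for helicase start-up, rose from 40.8 ± 0.725 to 46.6 ± 2.25 CPM (0.19, adjusted p = 0.0118) and Cdc45 from 45.3 ± 0.208 to 50.7 ± 1.42 CPM (0.16, adjusted p = 0.00849, edgeR). Both calls were lost with library sizes alone (adjusted p = 0.115 and 0.14). The kinase gene Cdc7 was at 15.3, 16.4 and 15.7 CPM in shNT and 14, 17.2 and 16.1 CPM in shARF (adjusted p = 0.992). Its activating partner Dbf4 was at 85.5, 84.6 and 80.6 CPM and at 85.4, 94.8 and 92.9 CPM (0.12, SE 0.05, adjusted p = 0.066), and it was called higher without shARF replicate 1 (0.17, adjusted p = 0.0157).

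Both polymerase epsilon genes of the list rose, whereas the genes of polymerase delta and of polymerase alpha went both ways. Pole2, the second subunit of polymerase epsilon on the leading strand, showed the largest fold change of the 51 genes. Pole2 (chromosome 12, 69201773 to 69228195) was at 12.6, 11.5 and 11.8 CPM in shNT and 19.2, 23.3 and 21.8 CPM in shARF (0.84, SE 0.08, adjusted p = 0.000151). The catalytic subunit Pole was at 124, 119 and 117 CPM and at 143, 141 and 142 CPM (0.24, SE 0.03, adjusted p = 0.000388). Both rose, with groups apart, and the ratio of Pole2 to Pole per transcript length went from 0.425, 0.405 and 0.424 in shNT to 0.564, 0.692 and 0.644 in shARF. In polymerase delta, which copies the lagging strand, the accessory subunit Pold3 was at 23.7, 22.2 and 22 CPM and at 30.8, 29.2 and 28.1 CPM (0.38, SE 0.05, adjusted p = 0.00105). Pold2 fell from 66.2 ± 2.41 to 58.8 ± 1.1 CPM (-0.17, adjusted p = 0.00947) and the catalytic Pold1 from 58.6 ± 1.38 to 53.3 ± 2.01 CPM (-0.14, adjusted p = 0.0304, edgeR). The Pold1 call was lost in 6 of 14 alternatives, among them without shNT replicate 2 (adjusted p = 0.0681), shNT replicate 3 (0.0704), shARF replicate 2 (0.0949) or shARF replicate 3 (0.0581).

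Primase makes the RNA starts that polymerase alpha extends. Prim1, its catalytic subunit (chromosome 10, 128015168 to 128030037), was at 41, 41.9 and 39.6 CPM in shNT and 27.9, 28.2 and 30.2 CPM in shARF (-0.51, SE 0.05, adjusted p = 0.000139). Prim2, the large subunit, was at 33.7, 33.3 and 33.5 CPM and at 33, 36.7 and 36.9 CPM (0.08, SE 0.05, adjusted p = 0.231). The Prim1 groups stood far apart and the Prim2 groups overlapped, and Prim2 was called higher without shARF replicate 1 (0.14, adjusted p = 0.0369). Per transcript length, Prim1 was 1.52, 1.57 and 1.47 times Prim2 in shNT and 1.06, 0.961 and 1.02 times in shARF. The polymerase alpha genes differed by less than 0.2: Pola1, on the X chromosome, rose from 93.0 ± 2.48 to 101 ± 2.16 CPM (adjusted p = 0.0172) and Pola2 fell from 59.7 ± 1.34 to 54.4 ± 1.31 CPM (adjusted p = 0.0201, edgeR). The Pola1 call was lost with library sizes alone, with upper quartile scaling and without shARF replicate 2 (adjusted p = 0.484, 0.0559 and 0.0574). The Pola2 call was lost without shNT replicate 2, shARF replicate 1 or shARF replicate 2 (0.0523, 0.0572 and 0.0718).

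Pcna, the sliding clamp, was the most abundant of the 51 transcripts per kb of principal transcript, at 114 ± 1.6 CPM per kb in shNT and 126 ± 0.55 in shARF. Per kb of all annotated exons, Mcm4 (77.8 CPM per kb in shNT) was above Pcna (72.4). Pcna was at 171, 175 and 175 CPM in shNT and 193, 191 and 192 CPM in shARF (0.14, SE 0.02, adjusted p = 0.00124), a rise not called with library sizes alone (0.05, adjusted p = 0.0707). Of the clamp loader, Rfc1, the large subunit, rose from 135 ± 6.07 to 162 ± 2.48 CPM (0.26, adjusted p = 0.000987) and Rfc2 fell from 54.1 ± 1.95 to 48.2 ± 1.07 CPM (-0.17, adjusted p = 0.0131, edgeR). The small subunit Rfc5 was at 51.6, 50.8 and 51.2 CPM and at 54.3, 54.9 and 55.3 CPM (0.10, adjusted p = 0.0367). That call was lost in 10 of 14 alternatives, with each of the 6 libraries left out in turn among them (adjusted p 0.0633 to 0.0965). Rfc5 exons overlap Wsb2 on the opposite strand over 10.7% of their length, and Wsb2 rose (0.85). Rfc3 (34.4 ± 1.81 and 35.6 ± 3.47 CPM) and Rfc4 (28.1 ± 1.56 and 25.0 ± 1.71 CPM) were not called (adjusted p = 0.626 and 0.0683, edgeR). Rfc4 was the only gene of the 51 with groups apart and no call. Its exons overlap Eif4a2 on the opposite strand over 12.7% of their length, and Eif4a2 rose (0.24, adjusted p = 0.00573, edgeR). The part of these overlaps in the Rfc4 and Rfc5 values was not tested.

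Of the 3 genes of the single-strand binding protein RPA, Rpa1 and Rpa3 fell and Rpa2 was not called, and the DNA ligase gene Lig1 fell. Rpa1, the large DNA-binding subunit, was at 247, 253 and 260 CPM in shNT and 206, 203 and 202 CPM in shARF (-0.31, SE 0.03, adjusted p = 6.31e-05). Rpa3, the small subunit, fell from 24.4 ± 0.804 to 21.2 ± 0.578 CPM (-0.21, adjusted p = 0.00917). Rpa2 was at 39, 40.5 and 40.4 CPM and at 42.4, 42.4 and 40.2 CPM (0.06, SE 0.04, adjusted p = 0.258), with overlapping groups. The ratio of Rpa1 to Rpa2 per transcript length was 2.26, 2.23 and 2.3 in shNT and 1.74, 1.71 and 1.8 in shARF. Lig1, which seals Okazaki fragments, was at 115, 115 and 113 CPM and at 94.3, 90.4 and 90.5 CPM (-0.32, SE 0.03, adjusted p = 0.000102). Lig1 libraries of each group lay close together and the groups were apart.

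Fen1, the flap endonuclease that trims Okazaki fragments, varied within groups more than any of the others. It was at 31.8, 72.7 and 75.9 CPM in shNT and 80.5, 76.3 and 34.4 CPM in shARF (0.09, SE 0.42, adjusted p = 0.879). The counts were 1465, 3541 and 3123, and 3609, 3347 and 1540. A single library in each group, shNT replicate 1 and shARF replicate 3, was low, while Lig1 and Pcna in the same libraries lay with their group. Fen1 exons overlap the antisense gene Gm10143 over 78.8% of their length and Tmem258 over 5.4%. Gm10143 was under 0.4 CPM in all libraries, and Tmem258 was at 48.1 and 42.6 CPM in the low libraries, within the range of the rest of their groups. The part of counting, strand or isoform choice in the Fen1 values was not tested.

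**Figure D4:**
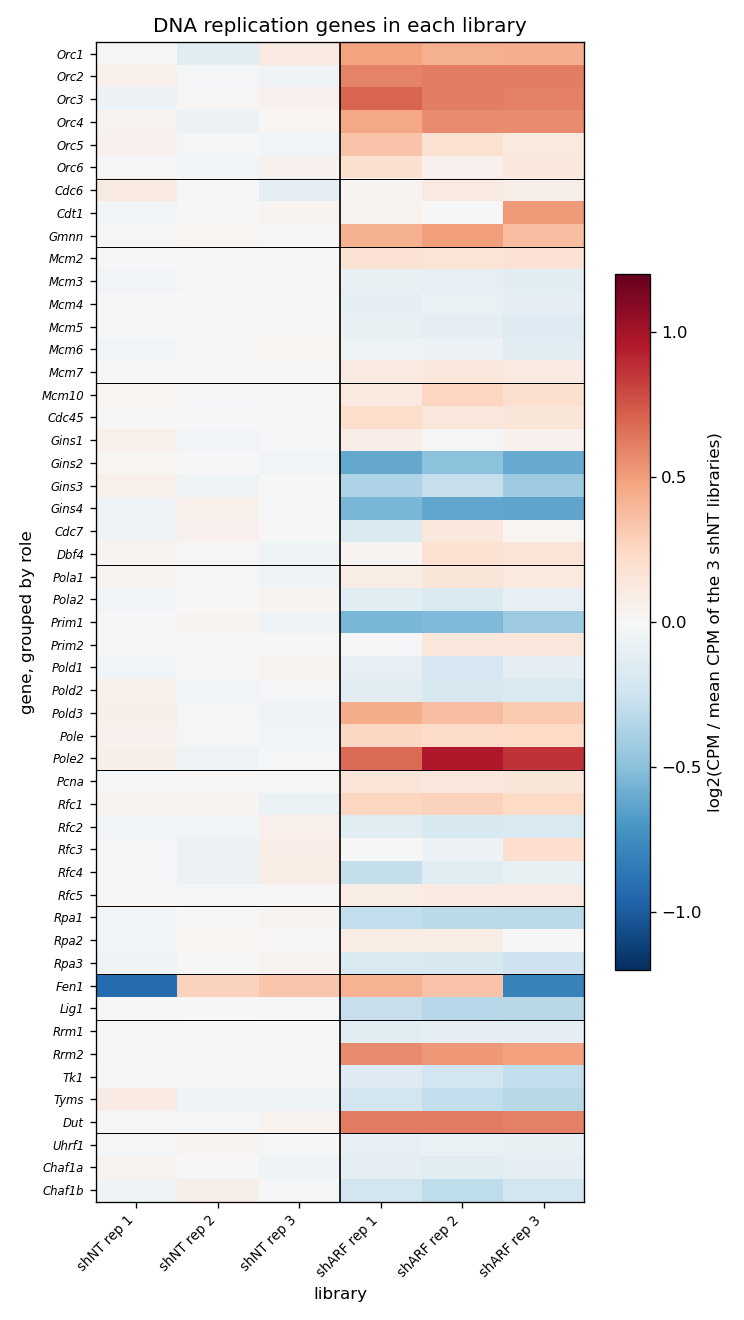
Level of each of the 51 genes (rows, grouped by role) in each of the 6 libraries (columns), as log2 of CPM over the mean of the 3 shNT libraries. Most rows change between groups and hardly within them, whereas Fen1 is low in shNT replicate 1 (31.8 CPM) and shARF replicate 3 (34.4 CPM) and Cdt1 is high in shARF replicate 3 (73.3 CPM).

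Nucleotide supply genes contained some of the best-resolved changes. Dut, the dUTPase that keeps uracil out of DNA, was at 70.9, 71.3 and 74.2 CPM in shNT and 111, 111 and 110 CPM in shARF (0.62, SE 0.03, adjusted p = 5.53e-06). Rrm2, the small subunit of ribonucleotide reductase that is limiting outside S phase, was at 107, 104 and 106 CPM and at 157, 152 and 149 CPM (0.53, SE 0.03, adjusted p = 1.04e-05). Dut stood at 153% and Rrm2 at 144% of the control, with groups apart. Rrm1, the large subunit of the same enzyme, was at 331, 327 and 326 CPM and at 300, 303 and 302 CPM (-0.12, SE 0.02, adjusted p = 0.00126). Rrm2 was thus 0.592, 0.581 and 0.593 times Rrm1 per principal transcript length in shNT and 0.955, 0.914 and 0.897 times in shARF. The order depends on the length taken: per kb of all annotated exons, Rrm2 (38.2 CPM per kb in shNT) was above Rrm1 (29.8). Tk1, thymidine kinase, fell from 78.5 ± 0.435 to 67.2 ± 3.18 CPM (-0.22, adjusted p = 0.00327) and Tyms, thymidylate synthase, from 58.2 ± 3.52 to 47.8 ± 1.85 CPM (-0.28, adjusted p = 0.00434, edgeR).

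The 3 chromatin copying genes were lower in shARF. Uhrf1, which recruits the maintenance DNA methyltransferase to hemimethylated DNA, was at 235, 244 and 235 CPM in shNT and 222, 225 and 224 CPM in shARF (-0.09, SE 0.02, adjusted p = 0.0137). Its call was lost without shNT replicate 2 (adjusted p = 0.053) and without shARF replicate 1 (0.0544). Chaf1a, the large subunit of the histone chaperone CAF-1, fell from 129 ± 3.96 to 118 ± 0.551 CPM (-0.13, adjusted p = 0.00921) and Chaf1b from 48.5 ± 2.26 to 40.9 ± 1.25 CPM (-0.25, adjusted p = 0.00431, edgeR). Chaf1a exons overlap Ubxn6 on the opposite strand over 52.5% of their length, and Ubxn6 fell (-0.55).

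Genes outside the list that work in replication also went both ways. Of 46 such genes, 19 rose and 12 fell, so that 67.4% were called. All 46 averaged at least 13.2 CPM, and their share was close to the 66.8% of genes at 10 CPM or more. Of all genes tested, 56.4% were called. The middle value of the 46 changes was 0.06 on the log2 scale. With library sizes alone as the scaling the balance turned, to 13 higher and 17 lower. The largest rises were those of Rrm2b (13.0 to 26.6 CPM, 1.03), which encodes an alternative small subunit of ribonucleotide reductase, Mtbp (52.8 to 98.6 CPM, 0.90), which acts with treslin in origin firing, and Tipin (35.4 to 59.4 CPM, 0.74), of the fork protection complex. The largest falls were those of Asf1b (46.3 to 28.7 CPM, -0.69), a histone chaperone, and of 2 subunits of ribonuclease H2, Rnaseh2c (21.7 to 13.7 CPM, -0.67) and Rnaseh2a (35.8 to 23.4 CPM, -0.62). Rrm2b was the only gene of the 46 with a fold change above 1 on the log2 scale.

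General markers of cycling cells gave no single direction. Of 8 markers, Ccne2, a cyclin of S phase entry, rose from 27.4 ± 1.62 to 53.5 ± 3.89 CPM (0.96, adjusted p = 3.42e-05) and Ccna2 from 205 ± 12 to 263 ± 12.2 CPM (0.36, adjusted p = 0.000984). Mki67, the Ki-67 proliferation antigen, fell from 761 ± 42.2 to 625 ± 10.7 CPM (-0.28, adjusted p = 0.000942, edgeR). Ccne1 (-0.13, adjusted p = 0.0479) and Aurkb (-0.13, adjusted p = 0.0294) were lower by edgeR, although both calls were lost with the replicate block (0.0882 and 0.0799). The Ccne1 call was also lost with RLE scaling (0.0516), no filter (0.0896) and DESeq2 (0.0855). It was lost too without any 1 library other than shNT replicate 3 (0.055 to 0.146). The Aurkb call was lost without shNT replicate 3 or any shARF library (0.0549 to 0.0981). Ccnb1 (116 ± 7.15 and 107 ± 6.41 CPM), Birc5 (76.8 ± 1.52 and 76.2 ± 2.08 CPM) and Bub1 (98.6 ± 4.35 and 99.1 ± 3.03 CPM) did not pass the test, although Ccnb1 and Birc5 were called lower with library sizes alone (adjusted p = 0.0156 and 0.0448).

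Several members had the sign of the genes around them on the chromosome, and others did not. The 51 genes lie on 15 chromosomes, and 6 of them, Orc6, Cdt1, Mcm5, Gins2, Gins3 and Gins4, on chromosome 8. There, 463 of 889 other tested genes were lower and 150 higher, with a median log2 fold change of -0.27. Of the 6 genes 4 were lower, and Orc6 and Cdt1 were not called. The medians of other tested genes within 5 Mb were -0.30 around Gins2, -0.31 around Gins3 and -0.36 around Gins4, from which Gins2, Gins3 and Gins4 differed by -0.27, -0.06 and -0.24. Mcm5 lay 0.25 above a window median of -0.36. Orc6 and Cdt1 lay 0.43 and 0.45 above window medians of -0.30 and -0.25. On chromosome 12, where 301 of 656 other genes were higher (median 0.26), Pole2 lay 0.45 above a window median of 0.40 and Rrm2 0.36 above one of 0.17. On chromosome 4 the median was 0.19, and Orc1 and Orc3 lay 0.31 and 0.47 above their windows. Orc2 and Dut rose in windows with medians of -0.06 and -0.01. Across the 40 called genes, 30 had the sign of their window median and 10 the opposite sign. The same share over all called genes was not computed, so 30 of 40 has no background to be read against. Some window medians were near 0, as for Pcna (0.01, same sign) and Dut (-0.01, opposite sign), where the sign says little. These medians come from the same libraries and the same contrast, and the part of position in the changes was not tested.

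**Figure D5:**
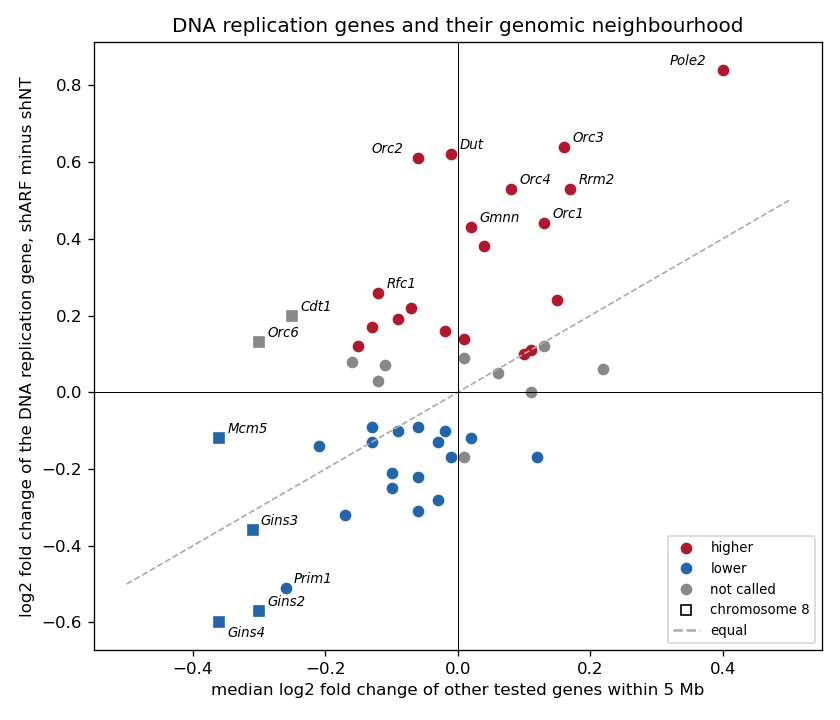
Log2 fold change of each of the 51 genes (vertical axis) against the median of other tested genes within 5 Mb (horizontal axis), coloured by call, with genes of chromosome 8 as squares and a dashed line of equality. The GINS genes of chromosome 8 lie in windows between -0.36 and -0.30, Pole2 in a window at 0.40, and Orc2 and Dut near 0 on the horizontal axis.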

How the data were processed

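RNA of p53-deleted MEFs was sequenced after ribosomal RNA removal with a stranded kit, per the labels' protocols, in 3 shNT and 3 shARF libraries. The authors deposited counts per gene, which were used as deposited. Per the submitters' processing notes, the build was GRCm38 and the tools were DESeq2 1.34.0, HISAT2 2.1.0, Picard 2.13.2, StringTie 1.3.2, SAMtools 0.1.19 and Trim Galore 0.4.1, with no role stated. Which step made the counts, and with which strand setting, was not stated there. Columns were matched to samples by group and replicate number, since index numbers of shARF columns and titles differ, and 6 columns of no sample were not used. Of 54752 rows, 54723 matched GENCODE M21 when ID versions were ignored, and 29 rows without a symbol held 0.00291% of counts.

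Counts were fitted with edgeR 4.0.16 (TMM factors, filterByExpr, quasi-likelihood test) in R 4.3.3, calling genes at a Benjamini-Hochberg adjusted p under 0.05 over all 17128 tested. The script was tested on simulated data. CPM use TMM factors, and levels per kb use the annotated principal transcript. Alternatives were RLE, upper quartile and no scaling factors, no filter or at least 1 CPM in 3 libraries, DESeq2 1.42.0, limma-voom (limma 3.58.1), a replicate block, each library left out, and a threshold of 0.01, which is not among the 14 settings counted for single calls. Named are Cdkn2a, all 51 genes, the called other replication genes that changed most (3 in each direction) and all cycling markers. Values in every library are given for called genes with an absolute log2 fold change of at least 0.3, uncalled genes of the same complexes, and the 3 called and 3 uncalled genes with the highest CPM. Further genes were given in every library after their values were seen. The genes and lists were chosen with earlier results of these data known, and the sex-linked list was added afterwards.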

Additional observations from a re-analysis of the deposited data

How the results depend on the processing

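Over the 66 genes followed, in the 14 settings and at the threshold of 0.01, 887 single values kept direction and side of the threshold, 70 lost and 7 gained a call, and 26 changed sign, none of these called either way. With library sizes alone 12 members were higher, and the members' median was -0.03, against 0.03 with upper quartile scaling and 0.02 to 0.07 with 1 library left out. Also with library sizes alone, Cdc7 was at -0.09, Cdc6 at -0.02, Gins1 at -0.06, Prim2 at -0.007, Rfc3 at -0.04, Rpa2 at -0.03, Fen1 at -0.004 and Bub1 at -0.08. Cdc7 was at -0.0004 with RLE, -0.03 with upper quartile scaling, -0.009 with the 1 CPM filter, -0.005 with limma-voom and -0.003 with the replicate block. Bub1 was at -0.02 with upper quartile scaling and -0.003 with the 1 CPM filter. With 1 library left out, Cdc7 ranged from -0.06 to 0.08, Rfc3 from -0.03 to 0.11, Fen1 from -0.22 to 0.39, Birc5 from -0.03 to 0.01 and Bub1 from -0.03 to 0.03. The cause was not tested. Rfc4 was called lower with library sizes alone and upper quartile scaling (adjusted p = 0.013 and 0.0401). Leaving out 1 library gave 17 to 19 members higher and 16 to 21 lower. Libraries of the same number did not deviate together (correlations -0.0905, -0.0211 and 0.00647), so the numbers are not taken as pairs. With the replicate block 18 members were higher and 18 lower, and 4604 and 4309 of all genes. A comparison of MCM protein sequences was not run. The lowest count of a member in a library was 487, and the effect of depth on the calls was not tested.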
